A study of Mus musculus with 4 samples.

Results

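R5 and R4 are the last 2 of 4 sorted populations of red cell precursors from mouse fetal liver at E14.5 (embryonic age in days), and the difference between them covers the end of the erythroblast stage, when the nucleus is expelled. Each of the 2256 genes that reached 10 RPKM in at least 1 of the R4 and R5 libraries was compared, out of 19564 gene symbols measured. The measure was the log2 ratio of RPKM + 1, R5 over R4, called the ratio from here on. It is above 0 where a gene was higher in R5, and it understates the change of genes at low values. RPKM is the number of reads of a gene divided by its length and by the depth of the library. Genes at least 2-fold apart on this scale are called higher or lower.

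The cells were stained for TER119, an antigen of the red cell lineage, and for CD71, the transferrin receptor, and were sorted without culture. Per the study's design text, R4 holds mostly polychromatophilic and orthochromatophilic erythroblasts, and R5 late orthochromatophilic erythroblasts with reticulocytes. R2 (proerythroblasts and early basophilic erythroblasts) and R3 (early and late basophilic erythroblasts) are the earlier populations and serve here as a background for levels. No genotype, strain or treatment is named for any population. R5 is a mixture of cells with and without a nucleus, and the share of reticulocytes in it is not given in the sources used here. Each of the 4 populations was sequenced as 1 library, so every difference is a description of these libraries without a p-value, and the number of embryos behind a library is not stated. In bulk RNA, fewer cells of a type and less RNA per cell cannot be told apart.

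Late erythroblasts stop dividing, condense their chromatin and expel the nucleus, and the reticulocyte that remains makes no new messenger RNA. Its RNA is what was transcribed earlier and has not yet been degraded, most of it coding for globin. Reticulocytes also shed the transferrin receptor and clear mitochondria and ribosomes on the way to a red cell.

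The gene behind the sort went with the labels. Tfrc, which encodes CD71, stood at 52.1, 133, 74.4 and 32.8 RPKM from R2 to R5, a ratio of -1.16 for R5 against R4. The steps between the lowest values gave the depth, which was less in R5 than in R4: a gene of 1 kb at 10 RPKM drew about 274 reads in R4 and 207 in R5. Globin genes held 80.4% of the summed RPKM in R4 and 81.9% in R5, or 70.8% and 72.1% with the 2 identical alpha copies counted once. At 10 RPKM or more, 1753 symbols were listed in R4 and 2144 in R5.

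R5 as a whole was slightly higher than R4 in the deposited values, with few genes at the opposite extreme. The median ratio of the 2256 genes was 0.35, the quartiles were -0.10 and 0.68, and 69.4% of the genes stood above 0. In R5, 181 genes (8.02%) were called higher and 44 (1.95%) lower. The direction of this split turned with the scaling. With the globin genes removed and the rest of each library brought to the same sum, the median was 0.13 and 91 of 2199 genes were higher (4.14%) against 99 lower (4.5%). With scaling to the median gene 61 were higher and 138 lower, so a ratio between 0 and about 0.35 carries no direction of its own.

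The limit of 10 RPKM itself favours differences, because a gene that passed only in 1 library had to be lower in the other. Of the 2256 genes, 1641 passed in both libraries, with a median of 0.22, 83 higher and 30 lower. Another 503 passed only in R5 and gave 98 of the higher genes, and 112 passed only in R4 and gave 14 of the lower ones. Just inside the limit stood Ppid, at 7.52 RPKM in R4 and 10.01 in R5, and just outside it Flna, at 5.28 and 9.98.

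**Figure D1:**
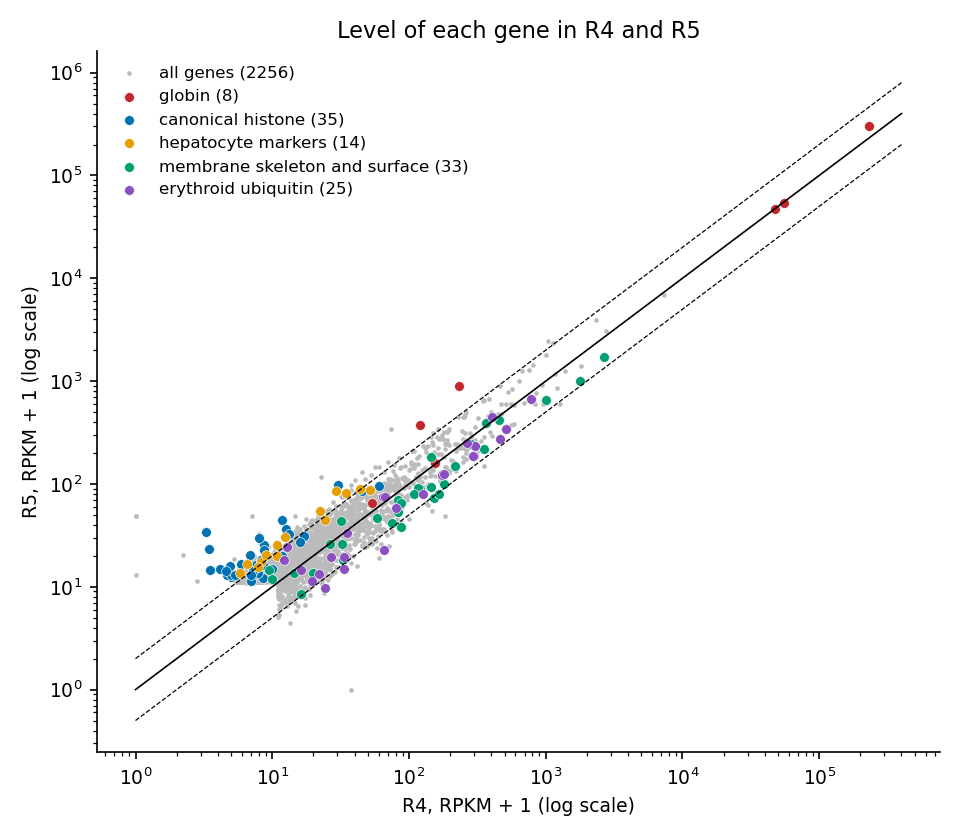
RPKM + 1 of each of the 2256 genes in R4 (x axis) and R5 (y axis), both on log scales, with 5 gene lists in colour; the solid line marks equal levels and the dashed lines 2-fold differences. The 35 canonical histone genes and 14 hepatocyte marker genes lie above the solid line, and most of the 33 membrane genes and 25 erythroid ubiquitin genes lie below it.

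Globin genes came first in level. With the 2 alpha copies counted once, since their values are identical, alpha-globin made up 2.33%, 31.1%, 48.9% and 54.0% of the summed RPKM from R2 to R5. As deposited it stood above its R4 level in R5 while beta-globin stayed level. Hba-a1 was at 9072, 128567, 230890 and 306178 RPKM from R2 to R5, a ratio of 0.41 that was 0.11 with scaling to the median gene and turned to -0.28 within its length bin. Hba-a2 had the same value as Hba-a1 in every library, so the reads of the 2 copies were not told apart. Hbb-b1, the adult beta-globin, was at 47348 RPKM in R4 and 46936 in R5, a ratio of -0.01, and its neighbour Hbb-b2 at 54999 and 54178, a ratio of -0.02. How reads that fit both were divided between Hbb-b1 and Hbb-b2 is not given in the sources used here, so each value is uncertain and their sum is the safer quantity. Alpha-globin, taken as the value of 1 copy, stood at 2.42 times the sum of the 2 adult beta genes in R2, 2.002 times in R3, 2.26 times in R4 and 3.03 times in R5. This ratio of RPKM does not depend on the scaling of a library, and R5 had the highest value of the 4.

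The embryonic globins moved apart from one another. Hbb-y, the epsilon-type beta globin made by the first red cells of the yolk sac, was at 76.7, 148, 230 and 903 RPKM from R2 to R5. Its ratio of 1.97 was among the highest of all genes, and as a fold it was 3.93 (95% counting interval 3.79 to 4.07). Hba-x, the zeta globin of the same cells, was at 40.9, 77.0, 120 and 370 RPKM in R2 to R5, a ratio of 1.61. Hbb-bh1, the other embryonic beta globin, was at 153 RPKM in R4 and 159 in R5, a ratio of 0.05. Against adult beta-globin, Hbb-y stood at 2.05%, 0.230%, 0.225% and 0.893% from R2 to R5, while Hbb-bh1 stayed between 0.150% and 0.199% in all 4 libraries. Hba-x was 0.0522% of 1 alpha-globin copy in R4 and 0.121% in R5. Thus 2 of the 8 globin genes at 10 RPKM or more were called higher and 0 lower, against 8.02% and 1.95% of all genes. Their median was 0.34, that of all genes 0.35.

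Canonical histone genes had the highest median of the lists as deposited, but not within length bins. These genes are normally transcribed during DNA synthesis, and their messenger RNA ends in a stem-loop in place of a poly(A) tail. Of 57 measured, 35 passed the limit, and 22 of the 35 were called higher in R5 and 0 lower, against 8.02% of all genes higher. Most of the 22, such as Hist1h4b (6.99 RPKM in R4) and Hist1h1b (3.16), were under the limit in R4. They passed it only through R5, which favours this count and the count of genes highest in R5. Among all 503 genes that passed only in R5, 98 were called higher. Their median was 1.31, and 1.08 over all 57 measured. It was 1.15 with globins removed, 1.06 with scaling to the median gene and 0.46 after taking the median of genes of like length from each ratio, so the direction held and the size did not. Within length bins genes of the glycolysis list (0.67), hepatocyte markers (0.62), ribosome assembly genes (0.59) and the 3 megakaryocyte markers (1.04) stood above them. In the shortest bin, up to 600 bases, histone genes are set partly against themselves. Its 46 genes had a median of 0.97, and the 23 left without globin, ribosomal protein and histone genes one of 0.63. The summed level of the 57 genes was 414, 505, 398 and 972 RPKM from R2 to R5. R5 was the highest library for 33 of the 35, against 76 of all 2256 genes.

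The libraries were made from RNA enriched for poly(A), so the ends of these transcripts bear on what was measured. A histone-type stem-loop was looked for on the sense strand of the longest RefSeq-linked GENCODE transcript of each gene (release M21, assembly GRCm38). The motif was 16 bases long, opened with GG, paired its first 6 bases with its last 6 (G with T allowed), and had a loop of 4 bases that opened with TTT. It was found in 34 of 56 canonical histone transcripts and 1 of 11 replacement histone transcripts. Among 2217 genes of this comparison with a transcript, 2.66% held it, and 1.74% of the 2182 that are not canonical histones. Capitals mark the 2 arms of the stem in 4 genes: the histone H4 genes with the 3 highest ratios among members with 30 or more reads, and Hist1h1c, which had the lowest.
Hist1h4i: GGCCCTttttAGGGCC
Hist1h4d: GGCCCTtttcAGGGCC
Hist1h4b: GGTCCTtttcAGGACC
Hist1h1c: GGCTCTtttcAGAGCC
The sequences differ in the arms and in the last base of the loop, and that of Hist1h1c was shared by 19 histone genes. In the annotation, the Hist1h4b transcript ends 28 bases after its stem-loop, the usual place for a canonical histone, whereas that of Hist1h1c runs on for 840 bases. Among members with a stem-loop at 10 RPKM or more, the 10 with at most 100 bases after it had ratios of 0.76 to 1.91 with a median of 1.23, and the 11 with longer ends 0.67 to 2.03 with a median of 1.11, so the sets overlapped. A transcript without the motif shows only that these letters are not in that annotated model.

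Single histone genes with many reads showed the same direction as the list. Hist1h4i, which codes for histone H4, was at 35.3, 62.5, 29.3 and 97.8 RPKM from R2 to R5, a ratio of 1.71 (3.34-fold, 95% counting interval 3.03 to 3.68). Hist1h2bc, a histone H2B gene, was at 9.91, 31.5, 44.1 and 85.2 RPKM, higher in each later library, with a ratio of 0.94. Hist1h1c, a linker histone gene, was at 59.1 RPKM in R4 and 94.4 in R5, a ratio of 0.67 and the lowest among canonical histone genes with 30 or more reads. Hist1h1b, another linker histone gene, was at 3.16 and 14.0 RPKM, a ratio of 1.85, and Hist1h4d at 10.9 and 43.6 RPKM, a ratio of 1.91. The reads behind this group are few: 13 of the 35 genes rested on under 30 estimated reads in the higher library. Among those were the highest ratios, Hist1h2ai (3.38, from 1 read to 11) and Hist1h2ah (2.78, from 1 read to 7). Histone genes are near copies of one another, so values of single members are uncertain.

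Replacement histone genes, most of which are transcribed outside DNA synthesis and carry poly(A) tails, had a median of 0.49 over 8 members. Of these 1 was called higher and 0 lower, against 8.02% and 1.95% of all genes. H1f0, the linker histone of cells that have stopped dividing, was at 29.0, 15.8, 3.81 and 12.9 RPKM from R2 to R5, a ratio of 1.53. H3f3a, the most abundant, was at 581 RPKM in R4 and 588 in R5, and H2afx, whose product marks DNA breaks, at 164 and 272.

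Genes that make heme stood close together and slightly lower in R5. Of 13, 0 were called higher and 0 lower, against 8.02% and 1.95% of all genes. The median of -0.18 was -0.37 with globins removed, -0.48 with scaling to the median gene and -0.51 within length bins. Alas2, the first and rate-limiting enzyme of erythroid heme synthesis, was at 75.3, 1129, 1797 and 1406 RPKM from R2 to R5, a ratio of -0.35. Fech, which inserts iron into the ring, was at 554 RPKM in R4 and 375 in R5, a ratio of -0.56, and Cpox, an enzyme in the middle of the pathway, at 316 and 203, the lowest ratio of the list at -0.63. The cytosolic enzymes Urod (-0.16) and Uros (-0.41) were lower too, and so were the mitochondrial membrane proteins Abcb10 (-0.50) and Abcb6 (-0.12) and the enzyme Ppox (-0.03). Alad, the second enzyme, was at 399 and 503 RPKM, a ratio of 0.33 that was 0.14 with globins removed. Tmem14c, a mitochondrial membrane protein needed for heme synthesis, had the highest ratio, 0.61, from 133 to 204 RPKM, but stood at -0.07 within its length bin.

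Of 13 iron genes 0 were called higher and 2 lower, against 8.02% and 1.95% of all genes. Besides Tfrc, Slc25a37, the importer of iron into mitochondria, was at 93.0, 1035, 1279 and 605 RPKM from R2 to R5, a ratio of -1.08. Ncoa4, the receptor that takes ferritin to the lysosome, was at 37.8 RPKM in R4 and 19.1 in R5, a ratio of -0.95. Ftl1, the ferritin light chain, was at 1467, 2371, 2323 and 3905 RPKM in R2 to R5, a ratio of 0.75 that was 0.14 within its length bin. Fth1, the heavy chain, was at 2743 and 3073 RPKM, a ratio of 0.16 that turned to -0.03 with globins removed. The other uptake genes Trfr2 (0.23), Steap3 (0.07) and Snx3 (0.22) were above 0 as deposited and below 0 with scaling to the median gene. The list's median of 0.15 turned to -0.04 with globins removed and to -0.14 with scaling to the median gene.

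Genes of the red cell membrane had a median below 0 as deposited and within length bins. Globin removal and median scaling lower every ratio, so these 2 treatments could not have turned it. Of 33 at 10 RPKM or more, 3 were called lower and 0 higher, against 1.95% of all genes lower, and 5 stood above 0. The median was -0.49 as deposited, -0.68 with globins removed, -0.81 with scaling to the median gene and -0.71 within length bins. Among the lower ones were parts of the membrane skeleton and of the band 3 complex. Spna1, erythroid alpha-spectrin, was at 15.8, 90.7, 86.1 and 37.0 RPKM from R2 to R5, a ratio of -1.20. Epb4.2, protein 4.2, was at 152 RPKM in R4 and 72.1 in R5, a ratio of -1.07. Spnb1, beta-spectrin, differed less than its partner, at 216 RPKM in R4 and 147 in R5, a ratio of -0.55, and Ank1, the ankyrin that ties spectrin to band 3, stood at -0.49.

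Transporters and surface proteins of the same list followed in smaller steps. Slc4a1, the band 3 anion exchanger, was at 164, 2342, 2667 and 1734 RPKM from R2 to R5, a ratio of -0.62. Slc2a1, the glucose transporter GLUT1, had the same ratio, from 999 to 649 RPKM. Tmcc2, a transmembrane coiled-coil protein, was at 52.8, 503, 1776 and 991 RPKM in R2 to R5, a ratio of -0.84, and was the second most abundant of the list. The Rh proteins differed from each other, with Rhag at -0.65 and Rhd at -0.11. At the upper end stood Tpm3, a tropomyosin, at 8.49 RPKM in R4 and 13.6 in R5, a ratio of 0.62, the nucleoside transporter Slc29a1 at 0.45, and Icam4, an adhesion molecule of erythroblasts, at 0.33.

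Genes of the erythroid ubiquitin system also had a median below 0 as deposited and within length bins. Of 25 at 10 RPKM or more, 3 were called lower and 0 higher, against 1.95% and 8.02% of all genes, with a median of -0.52, which was -0.71 with globins removed, -0.82 with scaling to the median gene and -0.76 within length bins. Over all 35 measured members the median was -0.17. Kel, a surface protein also counted among the membrane genes, is on this list without being a ubiquitin enzyme, with a ratio of -0.63. Trim58, a ubiquitin ligase of late erythroblasts that acts on the dynein motor, was at 7.01, 23.5, 64.6 and 21.9 RPKM from R2 to R5, a ratio of -1.52 (0.339-fold, 95% counting interval 0.316 to 0.363). Within its length bin Trim58 stood at -1.98. Fbxo30, the substrate-binding part of a ubiquitin ligase, was at 23.4 RPKM in R4 and 8.73 in R5, a ratio of -1.33, and Usp32, a deubiquitinase, at 32.3 and 14.0, a ratio of -1.14. The conjugating enzymes were lower by less: Ube2o, which remodels the proteome of reticulocytes, was at 297 and 185 RPKM (-0.68), Ube2l6 at 514 and 343 (-0.58), and Ube2h at 125 and 79.0 (-0.65). Ubb, a polyubiquitin gene, was the most abundant member, at 785 and 675 RPKM, a ratio of -0.22. Of 32 proteasome genes 1 was called higher and 0 lower, against 8.02% and 1.95% of all genes, and the median of 0.32 became 0.01 with scaling to the median gene and -0.04 within length bins. The higher one was Psmb10, a subunit of the immunoproteasome, at 78.7, 10.3, 5.12 and 16.5 RPKM in R2 to R5, a ratio of 1.51.

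Autophagy genes, which serve the clearing of organelles, had a median of -0.22 over 21 members, with 2 called lower and 0 higher, against 1.95% and 8.02% of all genes. Over all 48 measured the median was 0.03, so no direction is given for the list. Atg4a, a protease that processes the ATG8 family, was at 2.56, 10.5, 16.3 and 5.67 RPKM in R2 to R5, a ratio of -1.38. Bnip3l, the receptor for mitochondrial clearance in reticulocytes, was at 17.4, 30.4, 44.4 and 24.5 RPKM, a ratio of -0.83. Ulk1, a kinase that starts autophagy, was at 53.2 RPKM in R4 and 33.0 in R5, a ratio of -0.67, whereas the ATG8 family genes Gabarapl2 (-0.04), Map1lc3b (0.03) and Gabarap (0.19) stood near 0.

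Of 29 genes tied to enucleation and chromatin condensation 3 were called lower and 0 higher, against 1.95% and 8.02% of all genes, and the median of 0.21 turned to -0.10 with scaling to the median gene and -0.08 within length bins. Besides Trim58, these were Xpo7 and Wdr26. Xpo7, a nuclear exportin needed for the nucleus of erythroblasts to condense, was at 5.17, 30.1, 146 and 53.4 RPKM from R2 to R5, a ratio of -1.43. Wdr26, part of a ubiquitin ligase, was at 72.4 RPKM in R4 and 35.3 in R5, a ratio of -1.01. The condensin subunit Smc4 (-0.90), the clathrin heavy chain Cltc (-0.88), the integrin Itga4 (-0.89) and the lamin B receptor Lbr (-0.53) were on the same side. On the other side were the small GTPase Rac2, at 8.86 RPKM in R4 and 16.7 in R5 (0.85), the sorting protein Vps28 (0.93), the myosin heavy chain Myh9 (0.53) and lamin A (Lmna, 0.46). The cytoskeletal genes Rac1 (0.43), Cdc42 (0.33) and Rhoa (0.15) and the kinase gene Mapk14 (0.30) were above 0 as deposited. So were the lamin Lmnb1 (0.17), the condensin genes Ncapd2 (0.21) and Ncaph (0.16), and the chromatin genes Hdac1 (0.26), Setd8 (0.25), Anp32b (0.30) and Banf1 (0.57). Of the genes in these 2 groups, Rhoa, Lmnb1 and Ncaph turned below 0 with globins removed. With scaling to the median gene Ncapd2, Setd8 and Hdac1 did so too.

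Among erythroid transcription factors 2 of 20 were called lower and 0 higher, against 1.95% and 8.02% of all genes. Foxo3, which drives genes of late erythroid maturation, was at 28.1, 81.7, 98.7 and 44.2 RPKM from R2 to R5, a ratio of -1.14, and Sox6, a repressor of embryonic globin genes, was at 2.99, 21.4, 22.2 and 10.3, a ratio of -1.04. Klf1 and Gata1, which lead the erythroid programme, stood still in the deposited values, Klf1 at 257 and 255 RPKM and Gata1 at 90.7 and 90.5. With globins removed both had ratios of -0.20. Nfe2 (-0.25), Tal1 (-0.45), Lmo2 (-0.45) and E2f2 (-0.33) were lower, while Gfi1b, a repressor, was at 38.5 and 68.3 RPKM, a ratio of 0.81, and Ldb1, the bridging factor of the GATA1 complex, at 0.62. The list's median of -0.19 became 0.07 over all 40 measured members.

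The 15 lowest ratios with 30 or more reads also held genes not yet described. Cpeb4, an RNA-binding protein that represses translation late in red cell formation, had the lowest ratio, -1.66, at 7.44, 46.1, 59.6 and 18.2 RPKM from R2 to R5. As a fold this was 0.305 (95% counting interval 0.292 to 0.319). Fam46c, a poly(A) polymerase, was at 13.1, 144, 352 and 150 RPKM, a ratio of -1.23. Clk1, a kinase of splicing factors, was at 13.9 RPKM in R4 and 4.83 in R5 (-1.35), the initiation factor gene Eif5 at 61.3 and 25.2 (-1.25), and Ogt, which adds a sugar to nuclear and cytosolic proteins, at 14.47 and 5.56 (-1.24). Atp2b4, a calcium pump of the plasma membrane, was at 70.2 and 23.9 (-1.51), and Loxl2, a lysyl oxidase family gene, at 40.4 and 14.95 (-1.38). The remaining ones were 1700023B02Rik (-1.59, from 38 reads to 8), Fam55b (-1.29) and Ibtk (-1.20).

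**Figure D2:**
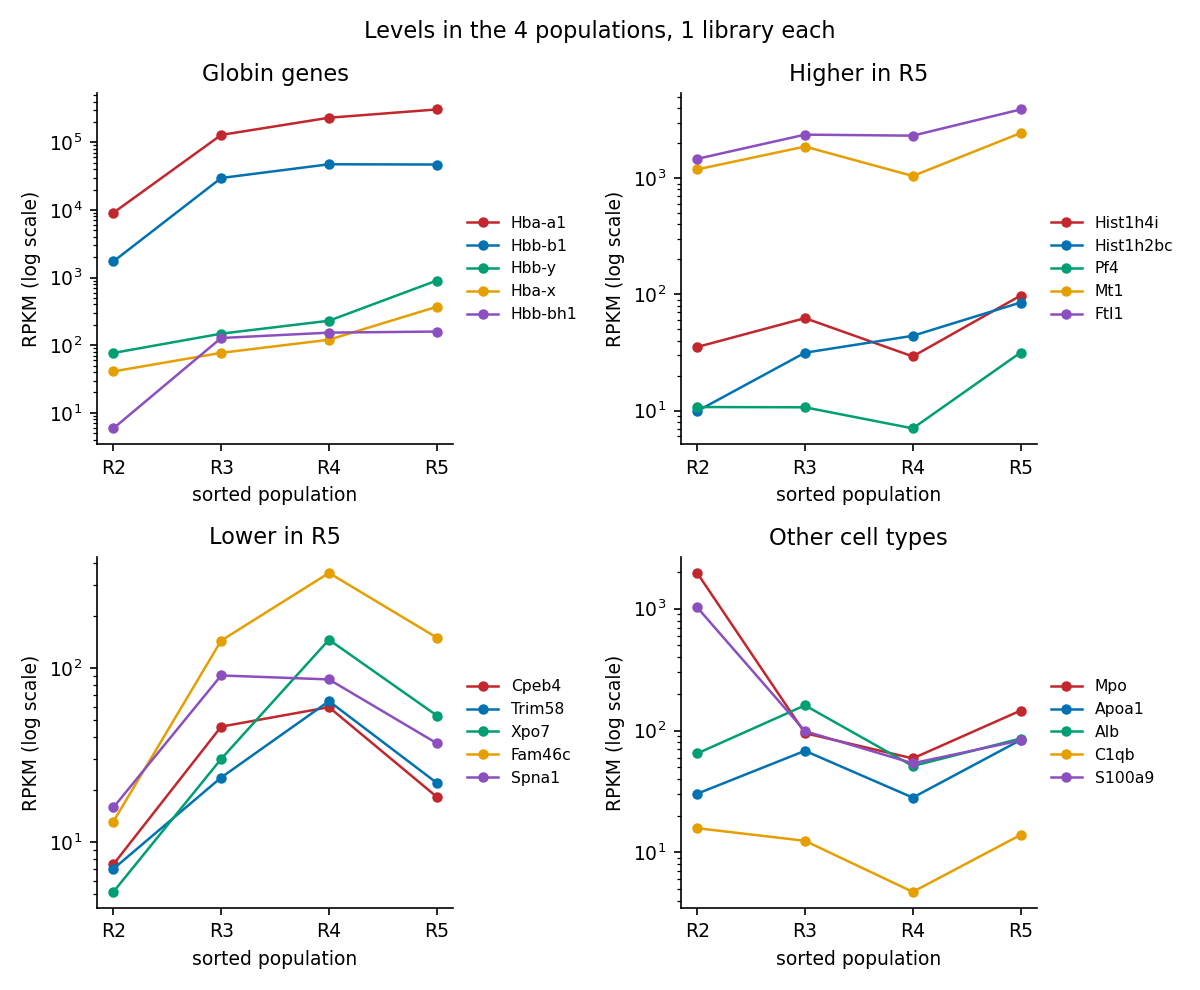
RPKM (log scale) of 20 named genes in the 4 sorted populations, 1 library each, in 4 panels: globin genes, genes higher in R5, genes lower in R5, and markers of other cell types. Cpeb4, Trim58, Xpo7 and Fam46c peak in R4, Hbb-y and Hba-x are highest in R5, and Mpo and S100a9 are lowest in R4 and far above that in R2.

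Cytosolic ribosomal protein genes had a median of 0.82 over 54 members, 0.62 with globins removed, 0.52 with scaling to the median gene and 0.29 within length bins. Of the 54, 10 were called higher and 1 lower, against 8.02% and 1.95% of all genes, and 13 rested on under 30 reads. Rpl41, the most abundant, was at 1138 RPKM in R4 and 2364 in R5, a ratio of 1.05, and Rplp1 at 1001 and 1784, a ratio of 0.83. Rpl14 was at 239, 84.3, 26.7 and 65.1 RPKM in R2 to R5, a ratio of 1.26, the highest with 30 or more reads. Ribosomal protein genes have many processed copies in the genome, and few bases of some could be counted: Rpl23a is listed at 0 in R4 and at 48.3 RPKM in R5, the value of 1 read over 1 base. The member called lower rested on under 30 reads too. Ratios of members such as Rpl23a describe single reads.

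Ribosome assembly genes had a median of 0.94 over 16 members, and 7 were called higher and 0 lower, against 8.02% of all genes higher. Most of the 7, such as Rrp9 (3.82 RPKM in R4) and Nolc1 (6.26), passed the limit only through R5, which favours this count. The median was 0.75 with globins removed, 0.65 with scaling to the median gene and 0.59 within length bins. Fbl, the methyltransferase of the nucleolus, was at 496, 92.5, 28.2 and 60.7 RPKM in R2 to R5, a ratio of 1.08, and Npm1, the nucleolar chaperone, at 592, 75.7, 37.7 and 61.3, a ratio of 0.69. Rrp9, which helps cut ribosomal RNA, had the highest ratio of the list, 1.40. In this list R2 was far above the 3 later libraries: its summed level was 3593, 657, 262 and 493 RPKM from R2 to R5. Mitochondrial ribosome genes had a median of 0.82 over 38 members, 0.27 within length bins, with 8 called higher and 0 lower, against 8.02% and 1.95% of all genes. Mrpl12, a protein of the large subunit, was at 248.5, 42.0, 16.7 and 45.1 RPKM in R2 to R5, a ratio of 1.38. Translation factors had a median of 0.42 over 37 members, with 3 called higher and 1 lower, that 1 being Eif5, which is near the shares of all genes (8.02% and 1.95%). Eef1a1, the elongation factor, was at 525 and 775 RPKM (0.56), and Pabpc1, which binds poly(A) tails, at 948 and 600 (-0.66). Splicing genes had a median of 0.47 over 33 members, 0.29 within length bins, and the highest of them was Snrpd2, a core protein of the splicing complexes, from 55.2 to 144 RPKM (1.36).

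Genes of the glycolysis list had a median of 0.77 over 19 members, which was 0.67 within length bins. Of these, 7 were called higher and 0 lower, against 8.02% and 1.95% of all genes. The list also holds pentose phosphate genes, such as G6pdx and Tkt, and the membrane carriers Slc16a1 and Slc16a10. Aldoa, aldolase A, was at 569, 94.5, 39.5 and 107 RPKM from R2 to R5, a ratio of 1.42. Ldha, lactate dehydrogenase, was at 51.4 and 121 RPKM in R4 and R5 (1.22), Eno1, enolase, at 46.8 and 110 (1.22), and Gpi1, which follows hexokinase, at 23.7 and 53.3 (1.14). Gapdh, also among the 7, stood for 1 read in R4 and 2 in R5. Not all members were higher. The carrier Slc16a10, which is not a glycolytic enzyme, had the lowest ratio of the list, -0.97. Slc16a1 stood at -0.61, and Pklr (0.04) and Hk1 (0.02) stood near 0. Bpgm, the enzyme that makes the bisphosphoglycerate that lowers the oxygen affinity of hemoglobin, was also below 0. It was at 15.04, 62.4, 194 and 134 RPKM, a ratio of -0.53. Oxidative phosphorylation genes had a median of 0.48 over 71 members, with 3 called higher and 0 lower, against 8.02% and 1.95% of all genes. They ran from -0.25 for Cox7a2, a subunit of cytochrome oxidase, to 2.02 for Atp5g1, a subunit of ATP synthase that rested on 26 reads in R5. Their median came to 0.19 with scaling to the median gene and to -0.02 within length bins. Antioxidant genes had a median of 0.07 over 22 members that turned to -0.13 with globins removed. Gpx1, a glutathione peroxidase, was at 1720, 5061, 7370 and 6822 RPKM in R2 to R5 (-0.11), Prdx2, a peroxiredoxin abundant in red cells, at 1379 and 1267 in R4 and R5 (-0.12), and Cat, catalase, at 173 and 97.2 (-0.83).

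Mitosis genes had a median of 0.17 over 34 members that turned to -0.05 with globins removed, and 0 were called higher and 1 lower, against 8.02% and 1.95% of all genes. That 1 was Mki67, a proliferation marker, at 69.8, 196, 136 and 62.0 RPKM in R2 to R5, a ratio of -1.12. Ube2c, which acts at the end of mitosis, was at 407 and 446 RPKM in R4 and R5 (0.13). DNA replication genes had a median of 0.41 over 27 members, with 0 called higher and 0 lower, against the same shares of all genes. Pcna, the sliding clamp of DNA polymerase, was at 162 and 195 (0.27). The medians of the canonical histone genes and of the replication genes, which are usually expressed together, were 1.31 and 0.41 as deposited and 0.46 and 0.17 within length bins, and the difference was not tested. Among genes of survival, Bcl2l1, which encodes Bcl-xL, was at 18.2, 119, 338 and 263 RPKM in R2 to R5, a ratio of -0.36.

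A few abundant or high-ranking genes lay outside the lists. Mt1, a metallothionein that binds zinc and copper, was at 1190, 1872, 1045 and 2446 RPKM from R2 to R5, a ratio of 1.23 that was 1.03 with globins removed and 0.62 within its length bin. Erh, a small conserved nuclear protein, was at 264, 69.9, 13.6 and 48.3 RPKM, a ratio of 1.75 (3.55-fold, 95% counting interval 2.21 to 5.86). Dpm3, a subunit of the enzyme that makes dolichol-phosphate mannose, was at 7.12 RPKM in R4 and 25.7 in R5 (1.71). Acbd6, an acyl-CoA binding protein, was at 109, 31.3, 7.94 and 22.5 RPKM, a ratio of 1.40 that was 1.52 within its length bin, the highest there with 30 or more reads. Lowest there was Trim58. Other high values within length bins were those of Mrps5 (1.40), Pf4 (1.34), Erh (1.29), Gpi1 (1.27) and Trmt1 (1.21), and other low ones those of the interferon-stimulated genes Isg15 (-1.58) and Isg20 (-1.53).

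**Figure D3:**
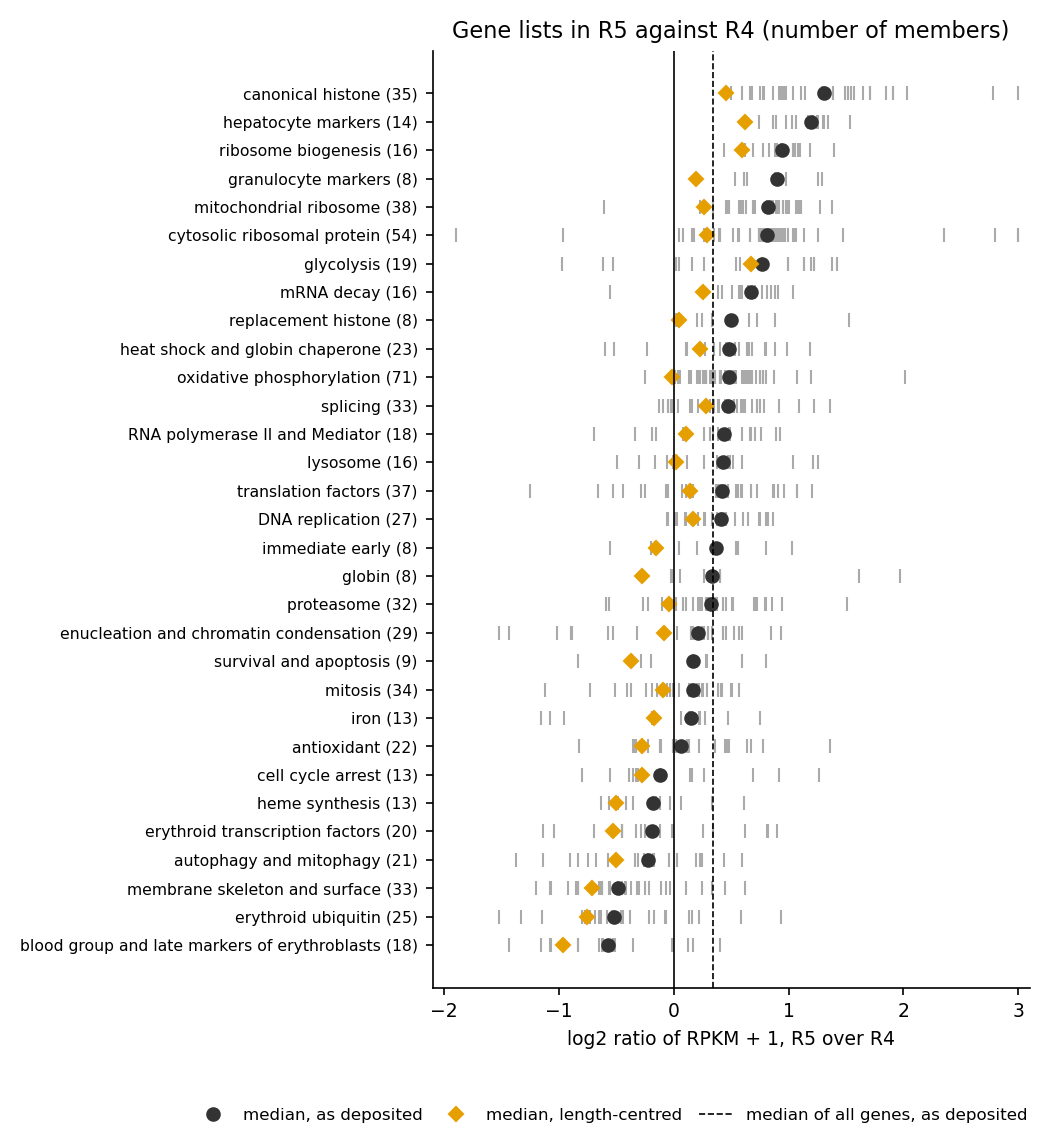
Ratio of R5 to R4 (log2 of RPKM + 1) for the 31 gene lists with at least 8 members at 10 RPKM or more; grey ticks are members (those below -2 or above 3 are drawn at that value), black circles list medians as deposited, orange diamonds medians after subtracting the median of genes of like length, and the dashed line the median of all genes, 0.35. Canonical histone genes are at the top with 1.31 and late erythroblast markers at the bottom with -0.57.

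Markers of other cells of the fetal liver were looked at in the same way. Hepatocyte markers had a median of 1.19 over 14 members, 0.62 within length bins, with 10 called higher and 0 lower, against 8.02% and 1.95% of all genes. Some of the 10, such as Apom (4.79 RPKM in R4) and Rbp4 (5.54), passed the limit only through R5. The summed level of all 25 was 477, 801, 281 and 624 RPKM from R2 to R5, so R4 held the least. Apoa1, an apolipoprotein, was at 30.3, 68.2, 28.2 and 83.6 RPKM in R2 to R5 (1.54), Afp, alpha-fetoprotein, at 50.1, 138, 42.8 and 88.6 (1.03), and Alb, albumin, at 64.8, 161, 51.1 and 86.0 (0.74). The hepatocyte factor Hnf4a was at 0.80 RPKM in R4 and 0.83 in R5, and 1 of the 25 was listed at 0 in each of the 2 libraries. Megakaryocyte markers summed over 16 genes came to 68.0, 59.4, 33.8 and 90.0 RPKM. Of the 3 at 10 RPKM or more 2 were called higher, against 8.02% of all genes. Both, Pf4 and Itga2b, were under the limit in R4 and passed it only through R5. Pf4, platelet factor 4, had the highest ratio of any gene with 30 or more reads, 2.02, at 10.8, 10.7, 7.04 and 31.6 RPKM in R2 to R5 (4.49-fold, 95% counting interval 3.62 to 5.56). Itga2b, the platelet integrin CD41, was at 4.54 RPKM in R4 and 12.5 in R5.

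Macrophages of the erythroblastic island take up expelled nuclei, and their markers summed over 21 genes to 367, 127, 63.4 and 113 RPKM from R2 to R5. Of these, 2 of the 4 at 10 RPKM or more were called higher, against 8.02% of all genes. They were C1qb and C1qc (5.66 RPKM in R4), which passed the limit only through R5. C1qb, a complement subunit made by macrophages, was at 15.8, 12.4, 4.74 and 13.9 RPKM, and the island adhesion gene Vcam1 at 0.60 RPKM in R4 and 0.72 in R5. Emr1, which encodes the macrophage antigen F4/80, was at 1.32 and 1.30 RPKM, so the members did not move as one. Granulocyte markers summed over 14 genes to 6336, 445, 244 and 486 RPKM in R2 to R5. Of the 8 at 10 RPKM or more 2 were called higher, against 8.02% of all genes. Mpo, myeloperoxidase, was at 1966, 95.2, 59.1 and 146 RPKM (1.29), and S100a9 at 1026, 98.9, 53.9 and 83.0 (0.61). Lymphoid markers summed to 3.90 RPKM in R4 and 6.80 in R5 over 16 genes, with 2 and 3 listed at 0. Endothelial markers summed to 10.7 and 21.8 over 13 genes, with 1 listed at 0 in each, and mesenchymal markers to 12.0 and 18.9 over 12 genes, with 0 and 2 listed at 0. Markers of early progenitors, 20 genes, summed to 251 RPKM in R4 and 256.5 in R5. Lmo2 and Lyl1, which are also on the list of erythroid transcription factors, made up 226 of that sum in R4 and 213.5 in R5. The other 18 genes, set apart after their values were seen, summed to 24.4 RPKM in R4 and 43.0 in R5. Late erythroblast markers, which include Hba-a1 and Tfrc, 18 of them at 10 RPKM or more, had a median of -0.57 with 4 called lower and 0 higher, against 1.95% and 8.02% of all genes, and all of the 19 measured were detected in both libraries. The part of RNA from other cells in the higher values of R5 was not tested.

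Length went with the ratio across the whole set. Exonic length, the number of bases covered by exons of a gene in GENCODE M21, was matched for 2232 of the 2256 genes. The 46 genes of up to 600 bases had a median ratio of 0.97, and the medians of the next bins were 0.68 (601 to 1000 bases, 100 genes), 0.61 (1001 to 1500, 179 genes), 0.54 (1501 to 2000, 186 genes), 0.46 (2001 to 3000, 457 genes), 0.33 (3001 to 4000, 344 genes) and 0.24 (4001 to 6000, 490 genes). The 430 genes longer than that had a median of -0.13. Each bin was thus lower than the one before it, and in the last one 39.3% of the genes stood above 0. Higher and lower genes sat at opposite ends: the 181 higher genes had a median exonic length of 1768 bases, the 44 lower ones 7571 bases and all genes 3373 bases. In the longest bin 5 genes were called higher and 31 lower. Across the 2232 genes, which are not independent replicates and share their libraries, Pearson's r of the ratio with log2 length was -0.46 and Spearman's rho -0.45.

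The slope was smaller without the short families. The difference between the shortest and the longest bin was 1.09, and it was 0.75 over the genes left without globin, ribosomal protein and histone genes. With globins removed and the rest rescaled, the medians were 0.79 in the shortest and -0.34 in the longest bin. For R3 against R2, 2 libraries not used in this comparison, r with log2 length was 0.16, and the bin medians from the shortest to the longest were -0.32, -0.98, -0.94, -0.92, -0.98, -0.81, -0.67 and -0.19. The first of these was -0.79 without globin, ribosomal protein and histone genes, so there the longer genes had the higher ratios. How the length trend of R5 and R4 arose was not tested, and RNA integrity is not given in the sources used here. After subtraction of the bin median, 38 of 2232 genes were called higher in R5 (1.7%) and 84 lower (3.76%).

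**Figure D4:**
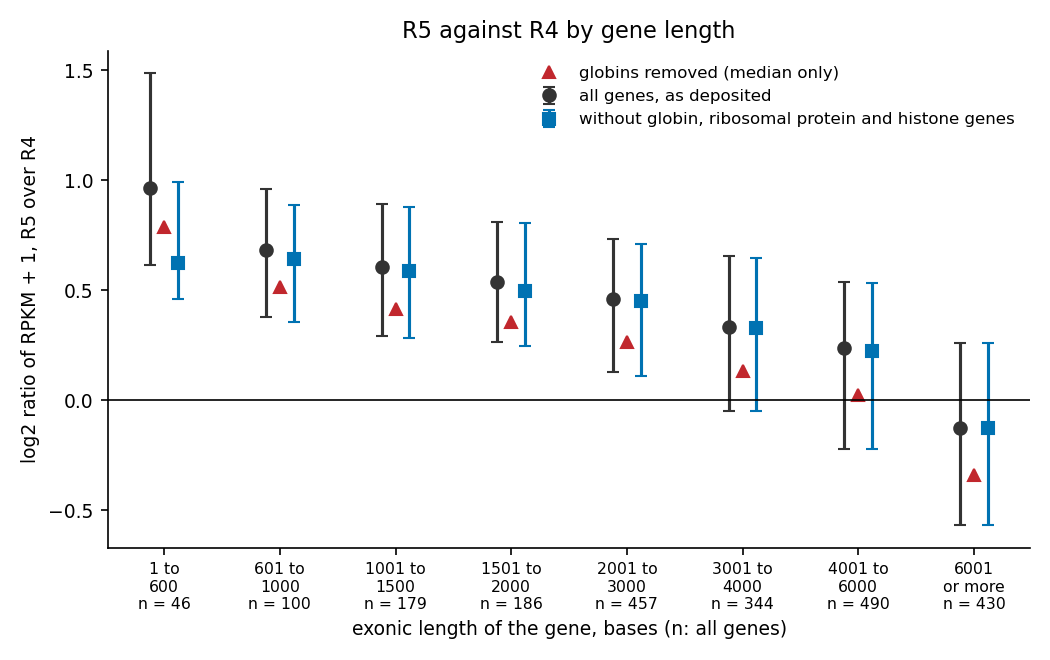
Ratio of R5 to R4 (log2 of RPKM + 1, y axis) by exonic length in bases (x axis); black circles are medians of all genes and blue squares medians without globin, ribosomal protein and histone genes, with bars from the lower to the upper quartile of genes, and red triangles medians with globins removed. The black medians go from 0.97 in the shortest bin to -0.13 in the longest.

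A comparison of 2 other libraries, R3 against R2, showed where these genes had stood earlier. Genes higher in R5 than in R4 were mostly genes that had been lower in R3 than in R2, and genes lower in R5 mostly those that had been higher in R3. Of the 181 higher genes, 129 (71.3%) were at least 2-fold lower in R3 than in R2, against 39.0% of all 2256 genes. Of the 44 lower genes, 32 (72.7%) had been higher in R3 by 2-fold or more, against 12.8% of all genes. The median ratio of R3 to R2 was -1.70 for the first set, 1.56 for the second and -0.74 for all genes. R2 was the highest library for 140 of the 181 genes and R5 for 34, and R4 was the highest for 35 of the 44. Across all 2256 genes Pearson's r between the 2 ratios was -0.64 and Spearman's rho -0.71. Within bins of length r ranged from -0.09 (46 genes of up to 600 bases) to -0.77 (3001 to 4000 bases). In most of the higher genes, R5 therefore lay between R4 and R2 in level, as in Fbl, Aldoa, Erh and Mpo above.

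**Figure D5:**
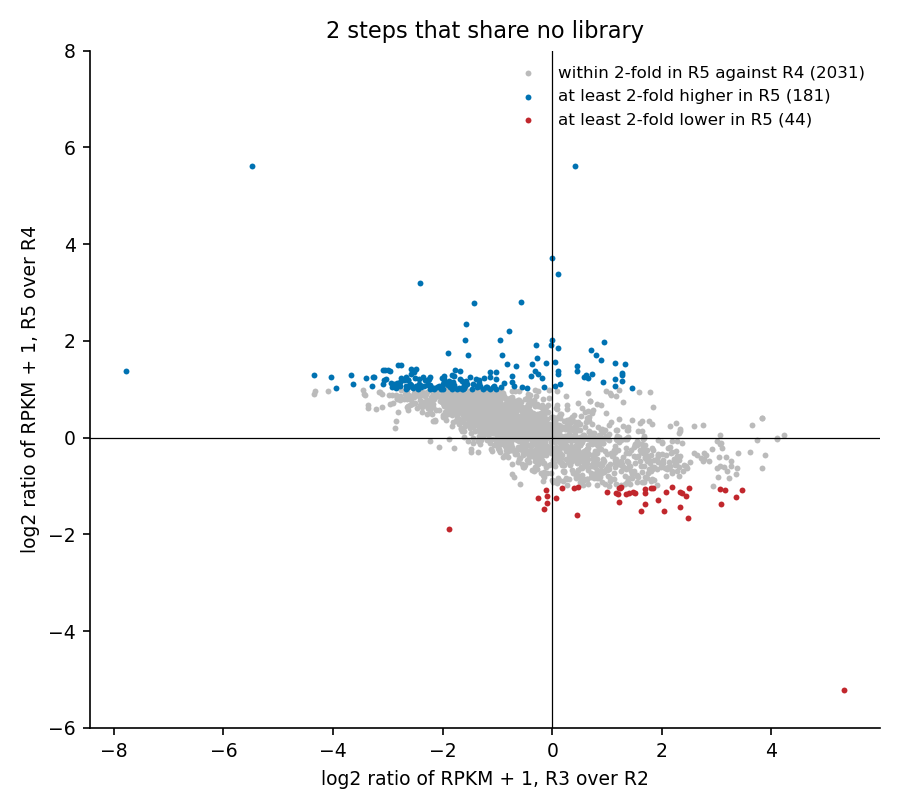
Ratio of R3 to R2 (x axis) against ratio of R5 to R4 (y axis), both log2 of RPKM + 1, for the 2256 genes; blue marks the 181 genes at least 2-fold higher and red the 44 genes at least 2-fold lower in R5. Most blue points lie left of 0 and most red points right of it.

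The 34 higher genes that had their highest value of all in R5 were of another kind. Canonical histone genes made up 22 of them, and hepatocyte markers 3, megakaryocyte markers 2, globin genes 2 and cytosolic ribosomal protein genes 1, which left 4 outside the lists. These were Mt1, Apoc2, the cofactor of lipoprotein lipase, at 4.25 RPKM in R4 and 17.5 in R5, Ftl2, a near copy of Ftl1, at 12.3 and 26.7, and Clm3, which stood for 1 read in R5. Their names were taken after the values were seen. Most of the 22 histone genes passed the limit of 10 RPKM only through R5, as given above.

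The data were treated in 4 ways: as deposited, globins removed, scaling to the median gene, and length bins. Of the 2105 genes with a value under all 4, 25 were at least 2-fold higher under each and 28 lower under each. These are not 4 separate checks. Globin removal and median scaling each lower every ratio, so a gene called lower as deposited stays lower under both. For the lower genes only the length bins could change the call. A gene higher with median scaling is likewise higher as deposited and with globins removed. Of the higher ones, several rested on few reads, among them Rps13 (0 reads in R4 and 2 in R5) and Hist1h2ai. Those with 30 or more reads included Pf4, Hist1h4d, Hist1h1b, Apoc2, Erh, Dpm3, Hist1h4i, H1f0, Acbd6 and Dlk1. Of these, Pf4 (7.04 RPKM in R4), Hist1h1b (3.16), Apoc2 (4.25), Dpm3 (7.12), H1f0 (3.81) and Acbd6 (7.94) passed the limit only through R5. This favours their call as higher. The others named, Hist1h4d, Erh, Hist1h4i and Dlk1, passed it in both libraries. Dlk1, a gene of fetal hepatocytes, was at 11.4 RPKM in R4 and 29.8 in R5. The 28 lower ones included Cpeb4, Trim58, Xpo7, Atp2b4, Fam46c, Foxo3, Tfrc, Spna1 and Epb4.2, and their estimated reads in R4 ran from 3881 (Trim58) to 54512 (Fam46c). Sumo2, also among the 28, stood for 1 read in R4 and 0 in R5.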

How the data were processed

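RNA from 4 sorted populations of mouse fetal liver erythroblasts was enriched for poly(A) and sequenced on a Solexa instrument, per the labels' protocols. The authors deposited RPKM per gene symbol, 1 file per library. Per the submitters' processing notes the build was mm9. What aligned and counted the reads, and with which gene models and lengths, is not stated there, and no coordinates are printed because the annotation used is of GRCm38. Log2 ratios of RPKM + 1 were computed for genes at 10 RPKM or more in R4 or R5, as deposited, with globins removed, with R4 and R5 scaled by the median of ratios over 2840 genes at 5 RPKM or more, and minus the median of the gene's bin of exonic length (GENCODE M21, by symbol for 16956 symbols and by synonym for 2219). Reads were estimated from the RPKM of 1 read over 1 base (36.5 in R4, 48.2 in R5), from fitted countable bases for 168 of the 2256 genes and otherwise from transcript length, which overstates reads where few bases can be counted. Counting intervals are exact binomial ones on these reads, cover counting error only and lack biological spread. Members and the 37 gene lists (1303 entries, 31 not matched) were chosen with earlier results of these data known. Named genes are the 15 highest and lowest ratios, the 10 highest and lowest within length bins and the 10 highest means, the leading members of each list, and all globin, heme and enucleation genes, with 30 or more reads; others were named after their values were seen. The steps were tested on simulated data (Python 3.11.15, pandas 2.3.3, numpy 2.4.6, scipy 1.17.1). Some items are not reported here.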

Additional observations from a re-analysis of the deposited data

How the results depend on the processing

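Counts of higher and lower genes depend on how the data are treated. As deposited they were 181 and 44. With a pseudocount of 5 RPKM they were 77 and 21, with a filter of 30 RPKM 69 and 26, with globins removed 91 and 99, with median scaling 61 and 138, and within length bins 38 and 84. With a filter of 1 RPKM or with none, 395 were higher. With RefSeq transcript length in place of exonic length 46 were higher. The median ratio of 0.35 was 0.28 with a pseudocount of 5 RPKM, 0.27 with a filter of 30 RPKM, 0.068 with no filter, 0.13 with globins removed, 0.004 with median scaling, 0.0 within either kind of length bin by construction, and 0.398 with a limit of 10 RPKM on the mean of the 4 libraries. The difference of 1.09 between the shortest and longest bin was 0.75 without globin, ribosomal protein and histone genes. The cause was not tested for the other changes. Of named genes, 12 of 173 changed sign with globins removed, 27 of 181 with median scaling and 39 of 180 within length bins. Of list medians, 4 of 34, 5 of 35 and 10 of 35 did. No result with a 2-fold difference reversed, but this was fixed in advance. A call needs a ratio of at least 1 in size, and the largest shift of any treatment was the bin median of 0.97. RefSeq length, the filter on the mean and the length bins without globins were chosen after seeing the data. No paired analysis was possible because each population gave 1 library. Depth limits the short and repeated genes most: 50 of the 2256 had under 30 estimated reads in the higher library.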
